A study of Mus musculus with 36 samples.

Results

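The 31 genes described here encode the enzymes that build cholesterol, the proteins that sense sterols and set the activity of those enzymes' genes, and proteins that move or store cholesterol. They are a list of mouse gene symbols matched to the Ensembl IDs of the count table, 31 of its 49585 gene IDs. All 31 passed the filter on low counts, as did 20009 genes in all. The list holds 20 enzymes (5 of the early mevalonate pathway, 3 of isoprenoid synthesis and 12 of squalene and sterol synthesis), 4 regulators of the SREBP pathway, 3 genes of the LXR arm and 4 genes of cholesterol movement and storage.

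Cells build cholesterol from acetyl-CoA in a long chain of reactions at the endoplasmic reticulum. Mevalonate is made first, isoprenoid units are made from it, and squalene, formed from those units, is closed into lanosterol and trimmed to cholesterol. The transcription factor SREBP2, encoded by Srebf2, turns on the genes of this chain when sterols are scarce. It is carried by SCAP and held back in the endoplasmic reticulum by the INSIG proteins when sterols are plentiful. The liver X receptors (LXR) respond to oxidised sterols and act in the opposite sense, towards export and less uptake. Alveolar type II cells of the lung secrete surfactant, in which cholesterol accompanies the phospholipids.

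The libraries come from lung tumours of mice carrying an EML4-ALK fusion kinase, of which the EGFP-positive neoplastic cells were sorted and their mRNA sequenced. The fusion was Variant 1 or Variant 3, which keep different lengths of EML4. Each variant was combined with sgNeo, a control guide that leaves Setd2 intact, or sgSetd2, a guide against the histone H3 lysine 36 methyltransferase Setd2. The 4 groups (Variant 1 sgNeo, Variant 1 sgSetd2, Variant 3 sgNeo and Variant 3 sgSetd2) hold 9 tumours each, and the titles give the 9 tumours of a group 3 codes with 3 tumours per code. What a code stands for is not stated, nor are strain, age, the time of collection or how the fusion was delivered. Counts were summed within a code, and a level below is a code's TMM-normalised counts-per-million level (CPM), with n = 3 codes per group, unless tumours are named. A code's level therefore weighs its tumours by their total counts. In CE429, for example, tumour 2 had 137.2 M counts and tumours 1 and 3 had 28.9 M and 45.2 M. The codes are always given in one order, which is CE467, CE468, CE472 for Variant 1 sgNeo, CE475, CE479, CE483 for Variant 1 sgSetd2, CE428, CE429, CE433 for Variant 3 sgNeo and CE450, CE454, CE456 for Variant 3 sgSetd2.

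Total counts lay between 17893071 and 137152480 per tumour, with a median of 40.65 M, and between 91.5 M and 212.1 M per code. All 10 markers of alveolar type II cells had a median above 1 CPM in each group, with Sftpc at 21087 CPM or more in every tumour, while Nkg7 was at 0 in all 36 tumours and Ptprc was at 0 in 20. Setd2 stood at 71.0, 53.5 and 78.5 CPM in the Variant 1 sgNeo codes and at 39.0, 38.7 and 34.5 CPM with the guide, without overlap (log2 fold change -0.86, SE 0.22, edgeR adjusted p = 0.0825). In Variant 3 it stood at 52.9, 65.7 and 45.2 CPM against 33.6, 43.8 and 59.8 CPM, and the groups overlapped (-0.26, SE 0.22, edgeR adjusted p = 0.647). The highest of the sgSetd2 codes, CE456, is also the lowest of the 3 for most members below. Gene-level counts cannot show whether a code or a tumour carries the edit.

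Per kilobase of exon, the members spanned a wide range of levels. Npc2, a soluble lysosomal cholesterol carrier, was highest, with a mean over the groups of 467 CPM per kb. Soat1, which esterifies cholesterol for storage, followed with 69.0 CPM per kb. Among the enzymes, Hmgcs1 (43.9 CPM per kb) and Pmvk (43.8 CPM per kb) were at the top, and Tm7sf2 (2.23 CPM per kb) and Fdps (1.35 CPM per kb) at the bottom. The sources do not say whether strand was used in counting. Of the exon bases of Fdps, 26.7% also belong to the overlapping gene Gm43738, so its reads cannot be assigned with certainty. The same share was 18.3% for Fdft1, which overlaps Ctsb, and at most 13.2% for each of the other members.

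With the Setd2 guide in Variant 3, 6 of the 31 members rose and 0 fell by edgeR's quasi-likelihood test at an adjusted p under 0.05, where 0.88% of the 20009 genes tested rose and 0.615% fell, 1.49% in all. The 6 were Idi1, Fdft1, Sqle, Lss, Cyp51 and Msmo1, all enzymes, and their folds lay between 1.80 and 3.02. In Variant 1, a single member, Msmo1, rose and 0 fell, where 0.7% of all genes rose and 0.72% fell, 1.42% in all. Averaged over both variants, 11 of 31 rose and 0 fell, where 3.72% of all genes rose and 3.63% fell, 7.35% in all: the same 6 with Acat2, Hmgcs1, Mvk, Tm7sf2 and the regulator Insig1. The average uses the same codes as both contrasts and is no separate experiment. Shares of all genes stand here and below as background, and are no test of a list that was not drawn blind to these data. The log2 fold change was above 0 for 26 members in Variant 1, 24 in Variant 3 and 27 in the average, where 49.5%, 51.9% and 51.2% of all genes were above 0. The median log2 fold change of the 31 members was 0.56 in Variant 3 and 0.26 in Variant 1, and that of all genes tested was 0.02 and -0.01. For the 20 enzymes the medians were 0.86 in Variant 3 and 0.30 in Variant 1. In such bulk samples, a change in the share of cells with high levels and a change in RNA per cell cannot be told apart.

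**Figure D1:**
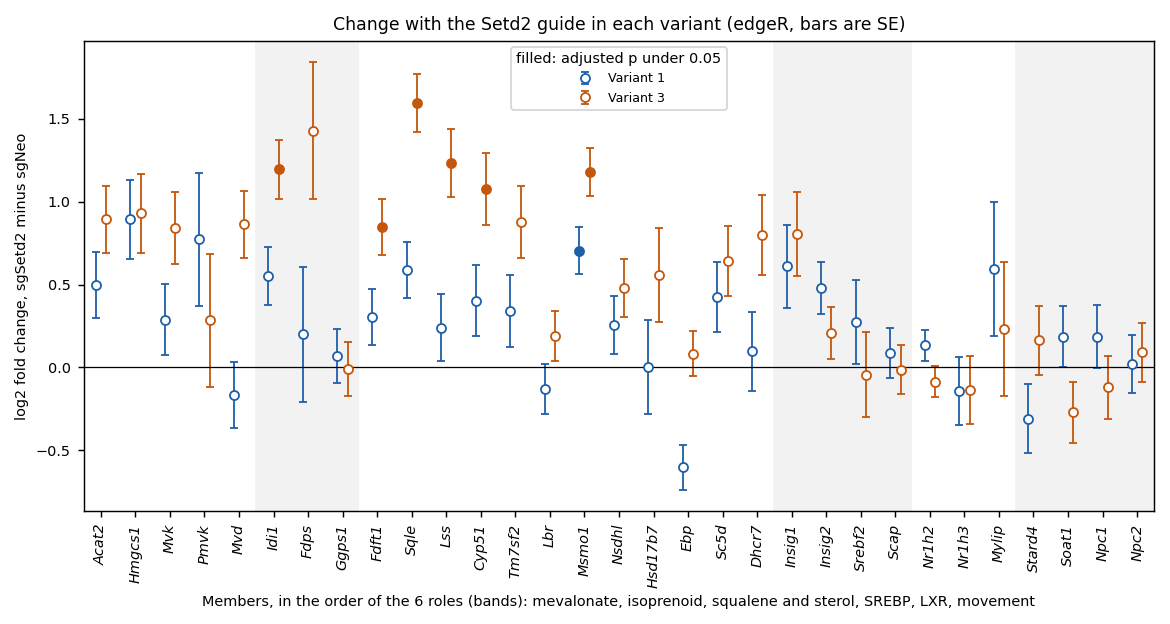
Log2 fold change of each member, sgSetd2 minus sgNeo, on the vertical axis, for Variant 1 (blue) and Variant 3 (orange); members run along the horizontal axis in 6 bands by role. Bars are the SE of the fit from 3 codes per group, and filled points passed the test. The filled Variant 3 points run from Idi1 to Msmo1, with Sqle the highest at 1.60, and no point of the LXR and movement bands is filled, with values between -0.31 (Stard4) and 0.59 (Mylip), both in Variant 1.

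The promoters of several of these genes are known targets of SREBP2, which binds sterol regulatory elements next to NF-Y and Sp1 boxes. RefSeq promoter windows (GRCm38.p6, from 250 bases before to 50 bases after the start) were given for 26 of the 31 members. The other 5, Sqle, Fdft1, Fdps, Stard4 and Npc1, had no window and were not searched. The letters TCACNCCAC, a form of the sterol regulatory element, were in a window of 1 of the 26 members, Hmgcs1, and of 1.48% of the 12612 tested genes that have a window; a gene with several starts has several windows and counted if any held the letters. A shorter form, CACNCCAC, which the first contains, was chosen after that result was seen and was found for 3 members (Acat2, Hmgcs1 and Insig1) and for 7.7% of the tested genes. CCAAT, the NF-Y box, was found for 22 of 26 members and 42.2% of the tested genes, and GGGCGG, the Sp1 box, for 22 of 26 and 62.8%. Both strands were searched in each case. A match describes the letters of the window and shows no binding. The 150 bases before the RefSeq start are printed for the 3 members with a sterol element form, for 4 of the genes that rose in Variant 3, and for Srebf2, whose level did not pass the test in any contrast. They are written 5′ to 3′ on the gene's strand, with capitals for the sterol element forms and for CCAAT or its reverse complement ATTGG. Hmgcs1 is from chr13:119690201-119690350 (plus strand), Acat2 from chr17:12960726-12960875 (minus strand), Insig1 from chr5:28071262-28071411 (plus strand), Idi1 from chr13:8885456-8885605 (plus strand), Lss from chr10:76531455-76531604 (plus strand), Cyp51 from chr5:4104698-4104847 (minus strand), Msmo1 from chr8:64733579-64733728 (minus strand) and Srebf2 from chr15:82147119-82147268 (plus strand).
Hmgcs1: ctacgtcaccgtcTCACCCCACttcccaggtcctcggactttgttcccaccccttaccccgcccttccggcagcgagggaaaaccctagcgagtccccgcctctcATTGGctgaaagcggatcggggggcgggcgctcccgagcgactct
Acat2: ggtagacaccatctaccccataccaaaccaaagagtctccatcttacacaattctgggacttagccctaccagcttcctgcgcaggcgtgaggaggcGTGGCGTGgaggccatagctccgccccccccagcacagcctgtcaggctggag
Insig1: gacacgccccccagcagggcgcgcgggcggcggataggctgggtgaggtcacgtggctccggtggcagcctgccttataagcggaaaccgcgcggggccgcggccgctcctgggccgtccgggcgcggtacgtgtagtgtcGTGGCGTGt
Idi1: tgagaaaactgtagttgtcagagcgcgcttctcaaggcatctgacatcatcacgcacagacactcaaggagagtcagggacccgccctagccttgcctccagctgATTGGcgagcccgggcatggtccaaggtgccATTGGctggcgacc
Lss: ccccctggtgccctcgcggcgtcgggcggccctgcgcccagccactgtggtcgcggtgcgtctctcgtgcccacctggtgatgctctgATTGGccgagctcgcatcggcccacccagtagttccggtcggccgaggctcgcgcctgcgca
Cyp51: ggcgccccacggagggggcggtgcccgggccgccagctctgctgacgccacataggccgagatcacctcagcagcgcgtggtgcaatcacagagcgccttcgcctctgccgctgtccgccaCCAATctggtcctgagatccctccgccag
Msmo1: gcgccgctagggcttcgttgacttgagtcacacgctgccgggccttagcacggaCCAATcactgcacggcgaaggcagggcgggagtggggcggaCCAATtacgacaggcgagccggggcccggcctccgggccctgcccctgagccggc
Srebf2: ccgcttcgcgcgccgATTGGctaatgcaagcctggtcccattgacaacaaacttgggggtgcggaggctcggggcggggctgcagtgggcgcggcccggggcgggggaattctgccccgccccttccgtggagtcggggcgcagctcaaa

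Among the 5 early mevalonate enzymes, no member passed the test within a variant, and 3 passed in the average. Hmgcs1, the synthase that makes HMG-CoA, stood at 140.4, 168 and 176 CPM in Variant 1 sgNeo and at 253, 233 and 414 CPM with the guide. In Variant 3 it went from 118, 136 and 102 CPM to 255, 260.0 and 164 CPM. The groups did not overlap in either variant, and the log2 fold changes were 0.89 (SE 0.24) and 0.93 (SE 0.24), with edgeR adjusted p = 0.0931 and 0.0846. The average of both, 0.91 (SE 0.17), passed with an edgeR adjusted p of 0.0096. Its window is the one with the full sterol element, in capitals near the 5′ end of the sequence above.

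Acat2, the cytosolic thiolase that joins acetyl-CoA units, had 54.1, 53.2 and 79.1 CPM against 92.9, 70.8 and 99.4 CPM in Variant 1, where CE479 overlapped the sgNeo codes. In Variant 3 it had 48.2, 58.3 and 49.0 CPM against 93.1, 117 and 78.8 CPM, with no overlap. It rose in the average by 0.70 (SE 0.14, edgeR adjusted p = 0.0146). Mevalonate kinase, Mvk, had 8.07, 7.38 and 7.32 CPM against 10.6, 8.14 and 9.05 CPM in Variant 1 and 5.79, 9.09 and 6.68 CPM against 12.4, 15.2 and 11.1 CPM in Variant 3. It rose in the average by 0.57 (SE 0.15, edgeR adjusted p = 0.0461), a call kept in 26 of 48 fits and, among codes, without CE429 or CE456. The other early enzymes did not pass: Mvd, the decarboxylase, was higher without overlap in Variant 3 (0.86, SE 0.20, edgeR adjusted p = 0.0615) and was 13.8 ± 1.98 against 12.3 ± 1.48 CPM (SD, n = 3 codes) in Variant 1. Phosphomevalonate kinase, Pmvk, varied widely between codes with the guide, from 40.5 CPM in CE456 to 168 CPM in CE483, and its groups overlapped in both variants.

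Of the 3 isoprenoid enzymes, Idi1 passed. Idi1 turns isopentenyl diphosphate into its reactive isomer, and it had 26.2, 24.2 and 24.9 CPM against 36.8, 34.3 and 39.3 CPM in Variant 1. In Variant 3 it had 18.2, 19.8 and 20.1 CPM against 46.9, 54.8 and 31.3 CPM, so that the lowest code with the guide was above every sgNeo code of either variant. The Variant 3 log2 fold change was 1.20 (SE 0.18, 2.29-fold, edgeR adjusted p = 0.0094), and that of Variant 1 was 0.55 (SE 0.17, edgeR adjusted p = 0.145). Among single tumours, 7 of the 9 Variant 3 sgSetd2 tumours were above the highest sgNeo tumour (33.6 CPM), and tumour 10 of CE456 was the lowest of the 9.

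Fdps, which condenses the units to farnesyl diphosphate, had 3.16, 3.33 and 5.30 CPM against 7.62, 9.42 and 14.7 CPM in Variant 3, without overlap. It did not pass there (1.43, SE 0.41, edgeR adjusted p = 0.125). In Variant 1 its groups overlapped, with 1.90, 5.44 and 4.12 CPM against 3.84, 3.50 and 5.82 CPM (0.20, SE 0.41). It is the one enzyme besides Tm7sf2 for which CE456 was the highest Variant 3 sgSetd2 code. Ggps1, which extends farnesyl diphosphate to the donor used for protein geranylgeranylation, had 45.9 ± 5.91 against 45.6 ± 1.74 CPM in Variant 3 (SD, n = 3 codes; -0.01, SE 0.16) and 0.07 (SE 0.16) in Variant 1.

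Of the 12 squalene and sterol enzymes, 5 rose in Variant 3 and 6 in the average, and every one of the 12 had a log2 fold change above 0 in Variant 3, the lowest being 0.08. Squalene synthase, Fdft1 (chr14:63145150-63179578, minus strand, GRCm38), commits farnesyl diphosphate to sterols and had 55.8, 64.7 and 59.9 CPM against 118, 122 and 83.9 CPM in Variant 3 (0.85, SE 0.17, edgeR adjusted p = 0.0362). In Variant 1 it had 60.1, 64.8 and 83.2 CPM against 93.7, 75.1 and 88.9 CPM, and the groups overlapped.

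Squalene epoxidase, Sqle (chr15:59315077-59331192, plus strand, GRCm38), which puts the oxygen on squalene and limits flux in the late pathway, had the largest fold among the members that passed. It had 39.1, 41.3 and 41.7 CPM in Variant 3 sgNeo and 135, 146 and 88.8 CPM with the guide, a 3.02-fold difference (1.60, SE 0.17, edgeR adjusted p = 0.0019). As levels of summed counts, the sgNeo codes lay within 3 CPM of each other. The guide codes spread over more than 50 CPM, with CE456 lowest. Single sgNeo tumours were far less even, as their range below shows. In Variant 1 the codes had 54.4, 63.0 and 62.8 CPM against 89.1, 80.4 and 102 CPM, which did not overlap and did not pass (0.59, SE 0.17, edgeR adjusted p = 0.116). By tumour, Sqle ran from 21.5 through a median of 34.2 to 78.4 CPM in Variant 3 sgNeo and from 57.0 through 126 to 179 CPM with the guide, and 8 of 9 guide tumours were above the highest control.

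Lanosterol synthase, Lss, which closes the ring system, had 27.2, 30.5 and 19.8 CPM against 64.4, 71.7 and 46.1 CPM in Variant 3 (1.23, SE 0.20, 2.35-fold, edgeR adjusted p = 0.0145). In Variant 1 the groups overlapped, with 31.5, 39.9 and 39.8 CPM against 43.1, 38.0 and 50.02 CPM (0.24, SE 0.20). Cyp51, the lanosterol 14-alpha-demethylase, had 47.8, 48.4 and 46.6 CPM against 109, 132 and 61.0 CPM in Variant 3 (1.08, SE 0.22, edgeR adjusted p = 0.0359) and 65.3, 58.7 and 69.9 CPM against 85.5, 80.9 and 90.3 CPM in Variant 1 (0.40, SE 0.21). The call for Cyp51 in Variant 3 was one of the least steady: it was kept in 31 of 48 fits that left out a code or a tumour, and was lost without any one code other than CE479 and CE456. That of Fdft1 was kept in 33 of 48, and was lost without CE468, CE475, CE483, CE428, CE429, CE433, CE450 or CE454. The Lss call was kept in 44 and lost without CE428, CE433, CE450 or tumour 2 of CE429, and the Idi1 call was kept in 47 and lost without CE428. The calls of Sqle and Msmo1 were kept in all 48.

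Msmo1, the sterol C4-methyl oxidase that starts the removal of the C4 methyl groups, was the only member that rose in each variant taken by itself. It had 66.9, 76.8 and 66.4 CPM against 109.9, 116 and 116 CPM in Variant 1 (0.71, SE 0.14, 1.63-fold, edgeR adjusted p = 0.0388). In Variant 3 it had 64.2, 74.4 and 60.9 CPM against 161, 172 and 119 CPM (1.18, SE 0.14, 2.27-fold, edgeR adjusted p = 0.0043). All 9 Variant 1 sgSetd2 tumours were above the median of the sgNeo tumours (73.4 CPM), but only 1 was above the highest of them (130.5 CPM), so that single tumours overlapped far more than the code sums. The Variant 1 call was kept in 27 of 48 fits without a code or tumour, and among codes was kept without CE429, CE454 or CE456. Its window, printed above, holds CCAAT on the gene's strand at 2 places in the stretch shown.

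**Figure D2:**
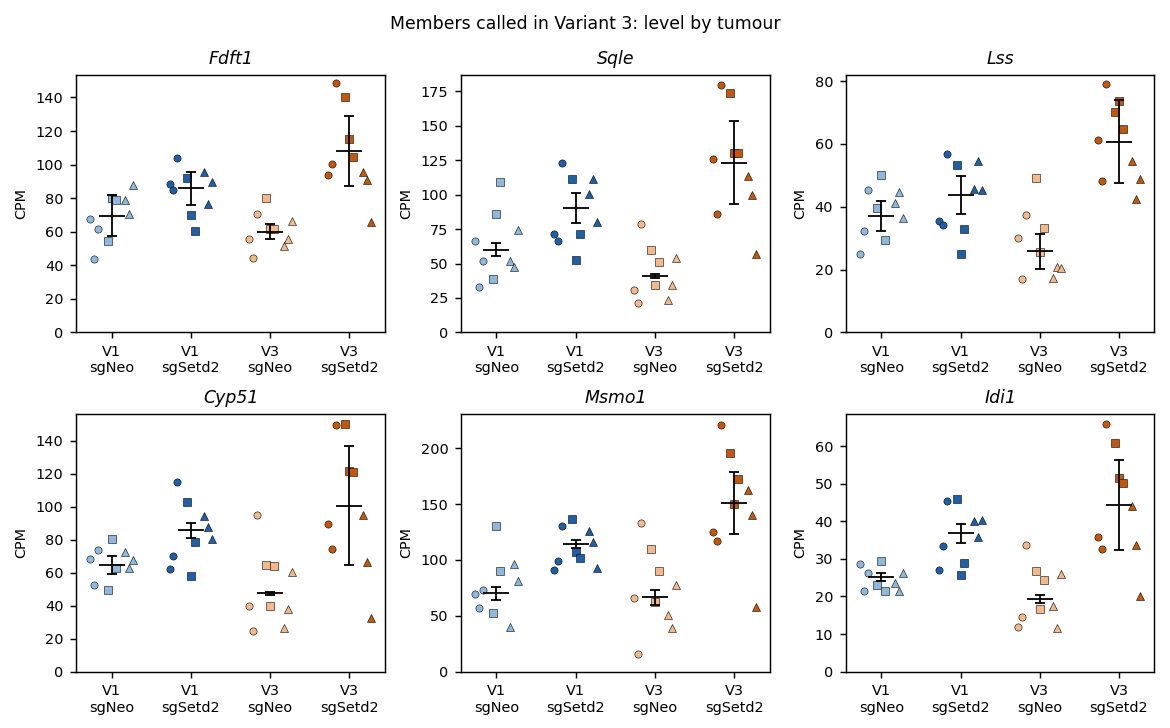
Level in CPM (vertical axis) of the 6 members that rose in Variant 3, by group (horizontal axis). Each symbol is a tumour, with a circle for the first code of its group, a square for the second and a triangle for the third, and the bar gives the mean and SD of the 3 code levels. In the Variant 3 sgSetd2 group the lowest triangle of most panels is tumour 10 of CE456, which stands at 57.0 CPM for Sqle and 57.8 CPM for Msmo1.

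Tm7sf2, a sterol C14 reductase, had 7.35, 6.03 and 6.56 CPM against 7.06, 9.55 and 8.64 CPM in Variant 1, where CE475 overlapped the sgNeo codes, and 7.05, 7.66 and 10.9 CPM against 13.9, 15.2 and 18.1 CPM in Variant 3, without overlap. It rose in the average (0.61, SE 0.15, edgeR adjusted p = 0.0348), a call kept in 31 of 48 fits and, among codes, without CE433. Its exons share 12.1% of their bases with Vps51. Lbr, a lamin-binding protein of the nuclear membrane with the same reductase activity, did not pass, with 88.9 ± 4.28 against 81.2 ± 14.8 CPM in Variant 1 and 62.3 ± 1.15 against 71.2 ± 11.9 CPM in Variant 3 (SD, n = 3 codes). The remaining sterol enzymes did not pass in any contrast. Nsdhl and Hsd17b7, which complete the removal of the C4 methyl groups, had Variant 3 log2 fold changes of 0.48 (SE 0.17) and 0.56 (SE 0.28). Sc5d, the lathosterol desaturase, had 0.64 (SE 0.21), and Dhcr7, which makes cholesterol from 7-dehydrocholesterol, had 0.80 (SE 0.24) without overlap of the codes. In Variant 1 the values were 0.26 (SE 0.17) for Nsdhl and 0.42 (SE 0.21) for Sc5d, both without overlap of the codes. Hsd17b7 and Dhcr7 overlapped there, with 0.0007 (SE 0.28) and 0.10 (SE 0.24).

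Ebp, the sterol isomerase that shifts a ring double bond, was lower with the guide in Variant 1, without overlap, with 52.2, 37.9 and 38.2 CPM against 26.2, 29.2 and 29.2 CPM (-0.60, SE 0.14, edgeR adjusted p = 0.0556, not called). The medians over single tumours did not show this gap. The Variant 1 sgNeo median over tumours was 28.1 CPM and that with the guide 29.0 CPM, and the 3 highest sgNeo tumours, 1 in each code, had 80.8, 78.1 and 53.8 CPM. In Variant 3 Ebp had 46.1 ± 1.64 against 48.9 ± 3.76 CPM (SD, n = 3 codes).

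Of the 4 SREBP pathway regulators, 1 passed in the average and 0 within a variant, and their median log2 fold change was 0.38 in Variant 1 and 0.10 in Variant 3. Insig1, which anchors the SCAP-SREBP complex and is itself an SREBP target, rose in the average (0.71, SE 0.18, edgeR adjusted p = 0.0370), a call kept in 34 of 48 fits and, among codes, without CE472, CE479, CE429 or CE456. It had 45.4, 34.1 and 53.1 CPM against 64.0, 53.2 and 85.1 CPM in Variant 1 and 27.7, 33.5 and 29.9 CPM against 53.8, 70.0 and 35.2 CPM in Variant 3, without overlap in either variant; the CE479 and CE456 codes lay within 2 CPM of the highest sgNeo code. Insig2, the second anchor, had 61.1, 59.2 and 72.7 CPM against 91.1, 79.0 and 98.8 CPM in Variant 1 without overlap (0.48, SE 0.16, edgeR adjusted p = 0.158). In Variant 3 its groups overlapped, with 72.0, 81.8 and 63.2 CPM against 95.9, 86.6 and 67.9 CPM (0.21, SE 0.16).

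Srebf2 itself had 67.3, 65.6 and 80.1 CPM against 74.1, 70.8 and 113 CPM in Variant 1, and 53.9, 79.8 and 56.6 CPM against 67.2, 77.3 and 40.2 CPM in Variant 3. Its log2 fold changes were 0.27 (SE 0.25) and -0.04 (SE 0.25), neither of which passed, and the average was 0.12 (SE 0.18, edgeR adjusted p = 0.771). Scap, the sterol-sensing escort, overlapped fully in Variant 3, with 29.0, 32.5 and 28.3 CPM against 29.8, 30.7 and 28.6 CPM (-0.01, SE 0.15). In Variant 1 Scap had 34.5, 24.5 and 35.4 CPM against 36.04, 29.8 and 34.4 CPM (0.09, SE 0.15). The mRNA level of Srebf2 and Scap says nothing of how much SREBP2 protein was cleaved, which was not measured.

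**Figure D3:**
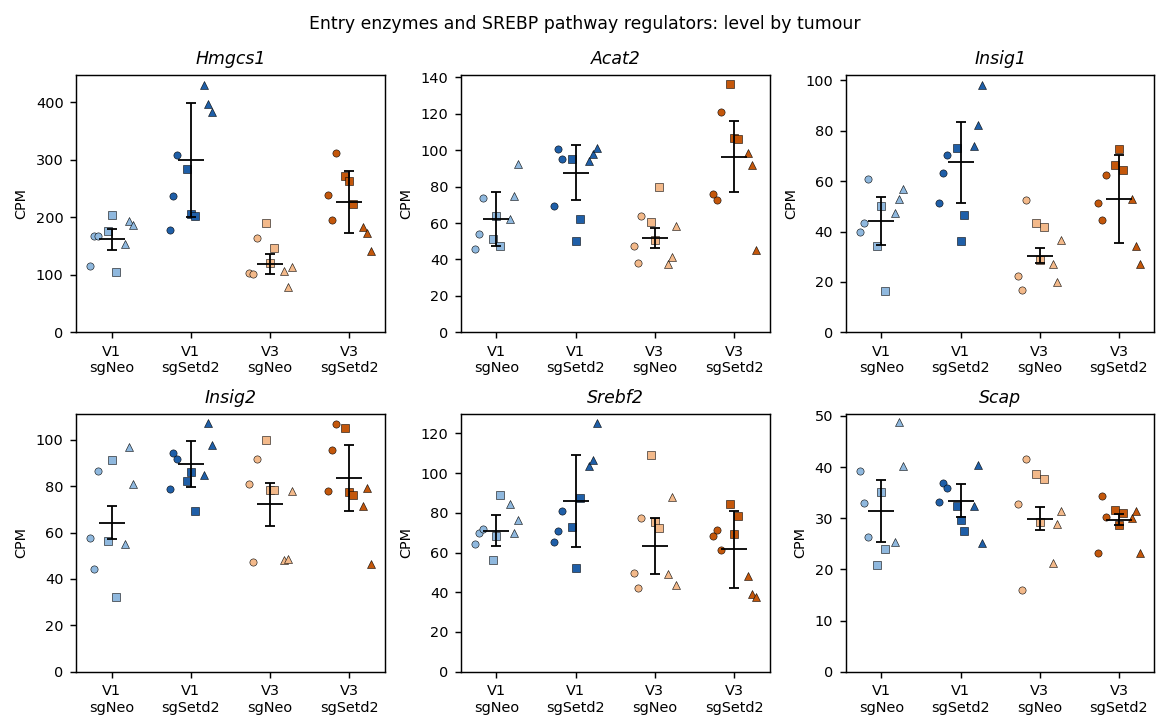
Level in CPM (vertical axis) of 2 early enzymes and the 4 SREBP pathway regulators by group (horizontal axis), drawn as in the plot of the members that rose in Variant 3. The Hmgcs1, Acat2 and Insig1 means are higher with the guide in both variants, while the Srebf2 and Scap means in Variant 3 are 63.4 and 61.6 CPM and 29.9 and 29.7 CPM.

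Among the LXR arm, no member passed in any contrast. Nr1h2, which encodes LXR-beta, had 45.5, 47.4 and 49.8 CPM against 54.8, 52.3 and 49.3 CPM in Variant 1 and 59.7, 58.7 and 62.3 CPM against 55.8, 56.4 and 58.2 CPM in Variant 3. The Variant 3 codes did not overlap, yet the log2 fold change was -0.08 (SE 0.09). Nr1h3, which encodes LXR-alpha, had 21.3, 21.1 and 17.8 CPM against 19.7, 17.2 and 17.7 CPM in Variant 1, and 24.6, 14.1 and 25.4 CPM against 21.5, 19.1 and 17.7 CPM in Variant 3 (-0.14, SE 0.20, in each variant). Mylip, the LXR-induced ligase that degrades lipoprotein receptors, had 11.5, 7.01 and 7.63 CPM against 14.3, 14.3 and 10.9 CPM in Variant 1 (0.59, SE 0.40) and 6.37, 11.6 and 4.0 CPM against 13.1, 5.55 and 7.20 CPM in Variant 3 (0.23, SE 0.40). Mylip was uneven between tumours of Variant 3 sgNeo, from 0.0232 to 13.95 CPM.

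The 4 genes of cholesterol movement and storage did not pass either. Stard4, a cytosolic sterol carrier and SREBP2 target, had 15.2, 15.3 and 21.9 CPM against 12.6, 13.5 and 16.2 CPM in Variant 1 (-0.31, SE 0.21) and 14.6, 14.7 and 13.4 CPM against 16.7, 19.1 and 11.96 CPM in Variant 3 (0.16, SE 0.21). Soat1 had 713 ± 67.4 against 810.1 ± 141 CPM in Variant 1 and 646 ± 14.1 against 535 ± 125 CPM in Variant 3 (SD, n = 3 codes). The Variant 3 codes of Soat1 did not overlap (-0.27, SE 0.18, edgeR adjusted p = 0.541), and CE456 was lowest at 391 CPM. Npc1 and Npc2, which pass cholesterol out of the lysosome, had Variant 3 log2 fold changes of -0.12 (SE 0.19) and 0.09 (SE 0.18). By tumour, Npc2 was lower with the guide in Variant 1, where none of the 9 guide tumours reached the sgNeo median of 2954 CPM, but the code sums were 2292 ± 139 against 2325 ± 367 CPM (SD, n = 3 codes).

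Counting codes rather than calls, 10 of 31 members in Variant 1 had every sgSetd2 code above every sgNeo code, against 11.7% of all genes, and 1, Ebp, had every one below, against 12.3%. In Variant 3 these counts were 14 members higher, against 10% of all genes, and 2 lower (Soat1 and Nr1h2), against 8.96%. Of the 14 higher in Variant 3, 13 were enzymes and the other was Insig1. The number with an unadjusted p under 0.05 was 8 of 31 in Variant 1, 16 in Variant 3 and 18 in the average, where all genes gave 15.9%, 15.1% and 22.9%.

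**Figure D4:**
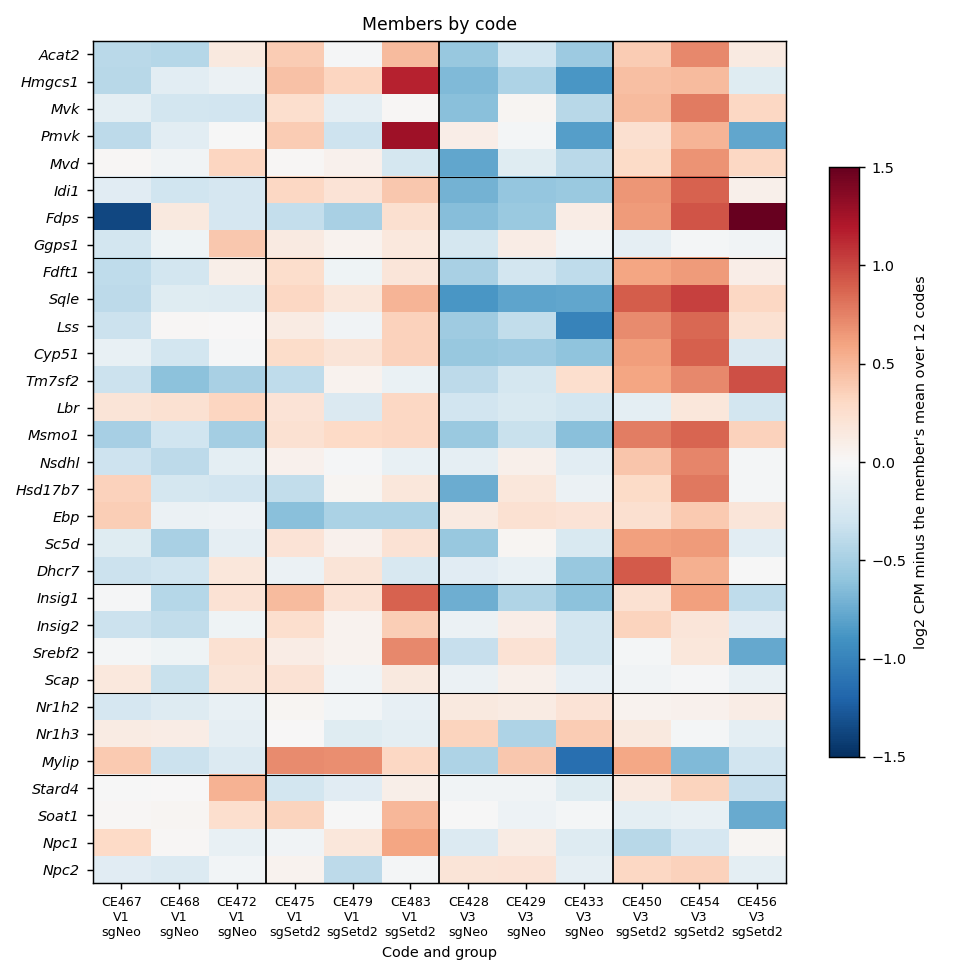
Level of each member (rows, in the order of roles) in each code (columns, by group), as log2 CPM minus the member's mean over the 12 codes; red is above and blue below that mean, and the colours stop at 1.5. Red fills most enzyme rows in CE450 and CE454 and blue most of them in the Variant 3 sgNeo codes, while the Srebf2 and Scap rows hold both colours in each variant.

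Between the variants, no member passed by edgeR with either guide. In the sgNeo codes 9 of 31 members had a log2 difference above 0, where 47.7% of all genes did. There, 0.005% of all genes passed, and 5 members (10.4% of all genes) had an unadjusted p under 0.05 by edgeR, while DESeq2 called 1 member, Nr1h2, among 393 genes in all. These codes are also the controls of the guide contrasts above. Variant 3 was lower for 10 of 31 members without overlap of the codes, against 8.21% of all genes: Hmgcs1, Mvd, Idi1, Sqle, Lss, Cyp51, Lbr, Insig1, Stard4 and Soat1. Sqle was 60.1 ± 4.91 CPM in Variant 1 and 40.7 ± 1.41 CPM in Variant 3 (SD, n = 3 codes; -0.56, SE 0.17, edgeR adjusted p = 0.345), and Lbr was 88.9 ± 4.28 and 62.3 ± 1.15 CPM (-0.51, SE 0.15, edgeR adjusted p = 0.330). Nr1h2 was the 1 member higher in Variant 3 without overlap, against 6.83% of all genes, with 47.5 ± 2.17 against 60.2 ± 1.86 CPM (SD, n = 3 codes; 0.34, SE 0.09, edgeR adjusted p = 0.307).

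In the sgSetd2 codes, 0.13% of all genes passed by edgeR and no member did, while DESeq2 called 3 (Ebp, Soat1 and Tm7sf2) among 485 genes in all, where edgeR called 26. An unadjusted p under 0.05 was found for 12 members and for 9.7% of all genes, and the log2 difference was above 0 for 20 members and for 52.5% of all genes. There Variant 3 was the higher for 7 members without overlap of the codes, against 8.62% of all genes (Fdps, Msmo1, Mvd, Mvk, Ebp, Tm7sf2 and Nr1h2). Ebp came closest to the threshold, with 28.2 ± 1.74 against 48.9 ± 3.76 CPM (SD, n = 3 codes; 0.79, SE 0.14, edgeR adjusted p = 0.0612). Ggps1 and Soat1 were lower in Variant 3 without overlap, against 8.06% of all genes.

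The difference of the guide's effect between the variants was tested as an interaction, which no member and 0 of 20009 genes (0%) passed. At an unadjusted p under 0.05 edgeR gave 8 members and 6% of all genes, and DESeq2 called 1, Sqle, among 116 genes in all. The interaction was above 0, a larger log2 fold change in Variant 3, for 22 of 31 members, where 53.3% of all genes were above 0, and for 18 of the 20 enzymes, all but Pmvk and Ggps1; 1 of the 31 changed sign under each of the other scalings. It was 1.01 (SE 0.24, edgeR adjusted p = 0.548) for Sqle, 1.00 (SE 0.29) for Lss, 1.03 (SE 0.28) for Mvd and 0.04 (SE 0.33) for Hmgcs1. The effects in Variant 1 and Variant 3 are therefore given side by side and are not shown to differ.

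The Variant 3 sgSetd2 codes were not alike. CE456 was the lowest of the 3 for 16 of the 20 enzymes and for 24 of the 31 members, and CE454 was the highest for 17 of the enzymes. Within CE456, tumour 10 was the lowest of all 9 Variant 3 sgSetd2 tumours for 22 of 31 members and had the highest Setd2 level of the 9, 81.7 CPM, where the other 8 lay between 28.2 and 56.5 CPM. The mean over the 20 enzymes of log2(CPM + 1) was 4.85 in that tumour, inside the range of the Variant 3 sgNeo tumours (4.37 to 5.28), while the other 8 guide tumours ran from 5.36 to 6.08. Among those 8, tumour 3 of CE450 had both the lowest enzyme mean, 5.36, and the lowest Setd2 level, 28.2 CPM. Tumour 9 of CE456, with Setd2 at 56.5 CPM, had an enzyme mean of 5.52. Whether Setd2 and the members go together by tumour was not tested. Without CE456 the Variant 3 fit called 7 members, and Sqle had a log2 fold change of 1.79 in place of 1.60.

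The sgNeo tumours were uneven too. In Variant 3 the enzyme mean ran from 4.37 in tumour 2 of CE428 to 5.28 in tumour 1 of CE429, and CE429 was the highest of the 3 codes for 15 of the 20 enzymes. In Variant 1 the enzyme mean ran from 4.82 to 5.35 with sgNeo and from 4.95 to 5.54 with the guide, so that the groups overlapped by tumour.

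**Figure D5:**
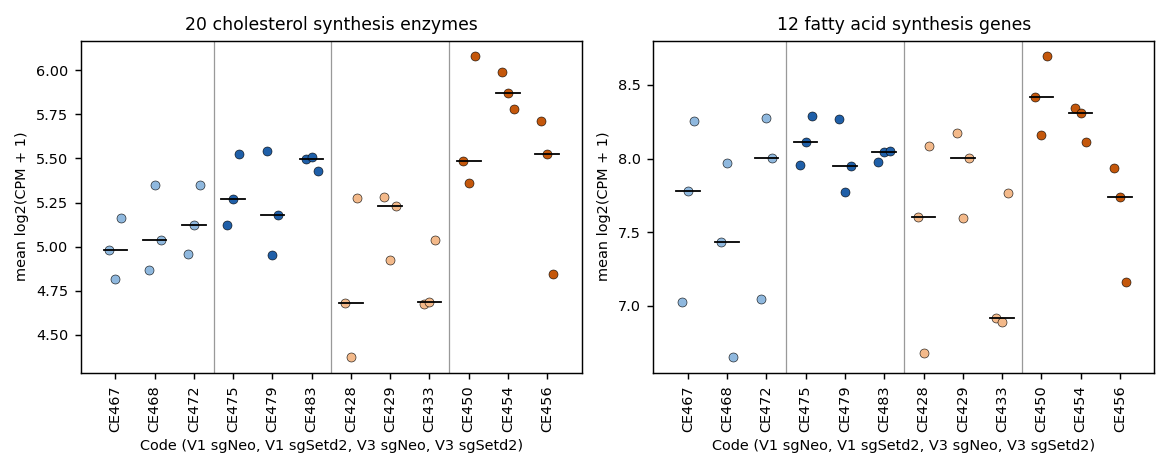
Mean of log2(CPM + 1) over the 20 enzymes (left) and over 12 genes of fatty acid synthesis (right), on the vertical axes, for each tumour, arranged by code on the horizontal axes. Each point is a tumour, each bar the median of the 3 tumours of a code, and lines part the 4 groups. In the left panel, 8 of the 9 Variant 3 sgSetd2 points lie above 5.3, and the point at 4.85 is tumour 10 of CE456.

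Markers of other cell types and of division moved with some groups. The codes with Ddx3y, a Y-linked gene, above 50 CPM numbered 0, 1, 2 and 1 of 3 in Variant 1 sgNeo, Variant 1 sgSetd2, Variant 3 sgNeo and Variant 3 sgSetd2, and with this as a covariate the calls were 0 in Variant 1, 5 in Variant 3 and 8 in the average. The summed level of 6 club and ciliated cell markers was higher with the guide. It ran from 18.2 through a median of 56.6 to 214 CPM against 168 through 312 to 864 CPM over the Variant 1 tumours, and from 12.1 through 24.4 to 27.2 CPM against 56.6 through 102 to 357 CPM over those of Variant 3, where the groups did not overlap. With the mean log2 CPM of that list as a covariate, chosen after seeing the data, the calls among members were 0 in Variant 1, 2 in Variant 3 (Msmo1 and Sqle) and 0 in the average. Because the list itself was higher with the guide, that fit cannot separate the list from the guide. The log2 fold changes of the 6 members called in Variant 3 were then 0.80 to 1.48, in place of 0.85 to 1.60, and those of the 11 called in the average 0.38 to 0.94, in place of 0.57 to 1.09. The value of Msmo1 in Variant 1 was 0.38 in place of 0.71, and that of Cyp51 in the average 0.38 in place of 0.74. The 18 cell cycle genes, all above 1 CPM at the median of each group, summed to 128 to 859 CPM in Variant 1 sgNeo and to 135 to 264 CPM with the guide, and to 160.3 to 703 CPM against 198 to 586 CPM in Variant 3. Their medians over the tumours were 311 against 195 CPM in Variant 1 and 263 against 284 CPM in Variant 3. With the cell cycle list as a covariate, the calls were 0 in Variant 1, 4 in Variant 3 (Idi1, Lss, Msmo1 and Sqle) and 0 in the average. The Variant 1 median was lower with the guide, so that fit cannot fully separate the list from the guide there. The same log2 fold changes were then 0.83 to 1.58 in Variant 3 and 0.27 to 1.01 in the average, with Mvk lowest, and 0.56 for Msmo1 in Variant 1. Over all genes, the calls in the average numbered 118 with the club and ciliated list and 29 with the cell cycle list, in place of 1471. With the same lists they numbered 8 and 1 in Variant 1, in place of 284, and 171 and 217 in Variant 3, in place of 299. With the Ddx3y covariate they numbered 102 in Variant 1, 188 in Variant 3 and 1160 in the average. Where so few genes passed in all, a count of 0 members says little of the members. The 7 fibroblast markers summed to 0.540 through a median of 5.87 to 405 CPM in Variant 1 sgNeo and 0.890 through 24.0 to 182 CPM with the guide, so that the median was higher with it. In Variant 3 they summed to 1.65 through 11.01 to 38.3 CPM against 7.79 through 43.4 to 101 CPM. Dropping the 4 tumours whose Col1a1 level exceeded 10 CPM gave 2 calls in Variant 1, 7 in Variant 3 and 10 in the average. Over all genes, that fit called 281, 296 and 1439, in place of 284, 299 and 1471. The 11 macrophage markers summed to between 4.16 and 29.0 CPM in each tumour, with a median of 7.69 CPM for Cd68 and with Adgre1 at 0 in 33 of 36. The 8 leukocyte markers summed to at most 5.85 CPM and the 6 endothelial markers to at most 8.90 CPM, and none of either list had a median above 1 CPM in any group.

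Genes next to the pathway were read from lists of non-members. None of the 10 tested genes of SREBP processing and sterol-regulated degradation passed in any contrast, and their median log2 fold change in Variant 3 was 0.10. Of 13 genes on the branches of the mevalonate pathway that make ubiquinone, dolichol and prenyl groups, 1 fell in the average and none rose. Over all genes, 3.63% fell and 3.72% rose there. The gene was Coq2, an enzyme of ubiquinone synthesis (-0.35, SE 0.09, edgeR adjusted p = 0.0349). Of 16 genes of cholesterol transport and esterification, Gramd1b, which carries plasma membrane cholesterol to the endoplasmic reticulum, fell in Variant 3 from 10.4 ± 2.75 to 2.84 ± 0.477 CPM (SD, n = 3 codes; -1.88, SE 0.35, edgeR adjusted p = 0.0277). Nceh1, a cholesteryl ester hydrolase, fell in the average (-0.96, SE 0.24, edgeR adjusted p = 0.0368). Over all genes, 0.615% fell in Variant 3 and 3.63% in the average. A single call in lists of this size says little of the list.

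Of 12 genes of fatty acid synthesis, the branch under SREBP1, 3 rose and 1 fell in the average, where 3.72% of all genes rose and 3.63% fell, and 0 passed within a variant. Scd1, the stearoyl-CoA desaturase, rose by 1.42 (SE 0.25, edgeR adjusted p = 0.0073), from 9228 ± 2990.0 to 22447 ± 3322 CPM in Variant 1 and from 6247 ± 1376 to 18290.2 ± 8511 CPM in Variant 3 (SD, n = 3 codes). Fatty acid synthase, Fasn, rose by 0.83 (SE 0.20, edgeR adjusted p = 0.0323), and Mid1ip1, an activator of acetyl-CoA carboxylase, by 0.83 (SE 0.16, edgeR adjusted p = 0.0116). Acsl3, which activates long-chain fatty acids, fell by 0.73 (SE 0.17, edgeR adjusted p = 0.0252). The median of this list was 0.50 in Variant 3 and 0.40 in Variant 1, beside 0.86 and 0.30 for the cholesterol enzymes, and CE456 was the lowest Variant 3 sgSetd2 code for its mean as well (7.65, against 8.48 and 8.32).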

How the data were processed

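The authors deposited raw read counts per gene, 1 column per tumour, under versioned Ensembl IDs. STAR 2.5.3a, R 4.2 and DESeq2 1.38.3 stand in the submitters' processing notes; neither they nor the labels used here name the counting tool, strand setting, build or annotation. Libraries came from a SMART-Seq kit, per the labels' protocols. Of 49585 IDs, 49326 took symbols and exons from GENCODE mouse release 21 (GRCm38), and 0 columns lacked a sample. Tumour counts were added up per code, and 1 model over the 12 codes (edgeR 4.0.16, R 4.3.3) used filterByExpr by group, TMM factors, robust glmQLFit and glmQLFTest, with Benjamini-Hochberg adjustment over 20009 genes at 0.05, for 6 contrasts. SE was taken as |log2 fold change| over the root of F. The labels do not say that codes are separate animals, so p-values measure the spread between codes, which may be technical. The steps were run on counts simulated per code from dispersions estimated on these data, which cannot show whether the model holds for the data. Alternatives used DESeq2 1.42.0, limma 3.58.1, other scalings, filters and covariates, and left out each code and tumour. No 2 libraries were identical. Members, lists and motifs were chosen with earlier results of these data known. Values by code are given for members past the threshold in any contrast and for the regulators, Stard4 and the LXR arm, also for Fdps and Ebp, chosen after their values were seen; up to 4 genes past it are named per list of non-members.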

Additional observations from a re-analysis of the deposited data

Results flagged for a closer look

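For each member and group, the highest and the lowest of the 9 tumours were compared with the rest, as log2(CPM + 1). On that scale, the gap of such a tumour to its nearest neighbour was divided by the whole range of the group. The tumour was marked where this ratio exceeded Dixon's 95% critical value for 9 samples. The levels of marked tumours are given in CPM, on which the ratio was not taken. Of 124 member groups, 12 were marked. Chance marks about 1 in 20 where the values and the groups are independent. Tumours of a code, and members read in the same tumours, need not be, so no excess can be read from the count. Tumour 10 of CE456 in Variant 3 sgSetd2 was marked low for 4 members: Msmo1 at 57.8 CPM, Ebp at 21.8 CPM, Insig2 at 46.3 CPM and Stard4 at 4.50 CPM, where the next tumours had 117, 44.2, 71.4 and 14.9 CPM. Tumour 4 of CE468 in Variant 1 sgNeo was marked for 3 members, high for Fdps at 12.01 CPM and low for Insig1 at 16.3 CPM and Soat1 at 235 CPM. The other marked values were Mvd at 3.598 CPM in tumour 2 of CE428 and Nr1h2 at 33.7 CPM in tumour 1 of CE433, both low in Variant 3 sgNeo. In Variant 1 sgSetd2 these were Ebp at 21.8 CPM in tumour 2 of CE475 and Npc2 at 1435 CPM in tumour 2 of CE479, both low, and in Variant 1 sgNeo Stard4 at 32.5 CPM in tumour 2 of CE472, which was high.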

How the results depend on the processing

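The count of members that passed moved with the fit. In Variant 1 the main count of 1 became 3 with the stricter filter (at least 1 CPM in 6 codes), 6 with DESeq2 (1500 genes in all, in place of 284), 2 without the tumours of high Col1a1, and 0 with limma on mean log2 CPM per code, without the highest cell cycle tumour of each Variant 1 sgNeo code, or with the cell cycle list, the sex of the code or the club and ciliated list as a covariate. Over all genes, the Variant 1 fits that called 0 members called 205, 15, 1, 102 and 8 genes, in the order listed. The stricter filter called 483 genes in Variant 1, and the fit without the tumours of high Col1a1 called 281. Limma voom on the tumours also gave 1 member in Variant 1, which was Hmgcs1 and not Msmo1. In Variant 3 the main count of 6 became 14 with DESeq2 and 12 with limma voom on the tumours. The genes called in all then rose from 299 to 1337 and 1058. With the stricter filter the count was 9, among 452 genes in all. With the groups compared alone or with the club and ciliated list it was 2, among 172 and 171 genes in all. In the average the main count of 11 became 6 without the highest cell cycle tumours and 0 with the cell cycle list or the club and ciliated list. The genes called in all then fell from 1471 to 613, 29 and 118. Between the variants in sgNeo, and for the interaction, DESeq2 called 1 member in place of 0. In sgSetd2 the count of 0 became 1 with upper-quartile scaling, no filter, the stricter filter or limma voom, and 3 with DESeq2. Over all genes, these fits called 31, 44, 50, 256 and 485 genes, in that order, in place of 26. The cause of each was not tested.

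Leaving out 1 code or tumour at a time (48 fits) gave 0 to 3 calls in Variant 1, 2 to 8 in Variant 3, 7 to 14 in the average, 0 to 1 between variants in sgSetd2 and 0 for the other contrasts. In Variant 1 the call was lost without any one of CE467, CE468, CE472, CE475, CE479, CE483, CE428, CE433 and CE450 (0 calls each), and leaving out CE456 gave 3. In Variant 3 the count was 2 without CE428, 3 without CE433 or CE450, 4 without CE468, CE475, CE429 or CE454, and 8 without tumour 3 of CE429. In the average it was lowest, 7, without CE475 and highest, 14, without CE456. Calls over all genes in these fits are not given here, so a shift of the members alone cannot be read from these counts. None of the 18 member calls by edgeR changed sign in any fit, calls of non-members were not followed, and another scaling shifted the median of all genes by at most 0.06 on the log2 scale. No paired analysis was possible because the replicate numbers were given in accession order and the tumour numbers name no unit shared between groups. The average and the interaction use all 4 groups, so a fit on the groups compared alone was not run for them. The number of codes, 3 per group, limits the tests.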
